A study of Homo sapiens with 6 samples.

Results

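The ABC transporters are the genes listed under a symbol made of ABC, a family letter from A to G and a number. 45 such genes were listed among 34644 gene names, in 54 of 38648 entries, because ABCB11, ABCC1 and ABCC6 were each listed 2 times and ABCF1 was listed 7 times. The 9 further entries of these 4 genes are copies placed outside the assembled chromosomes. Another 10 entries whose names begin alike, all antisense, divergent or readthrough transcripts, were left out, and no pseudogene carried such a name. Poly(A) RNA was sequenced from HK-2 cells, an immortalized human line derived from the proximal tubule of the kidney. The IR+NC-LV group (3 control libraries) carried a negative control lentivirus and the IR+PR-LV group (3 PRDM16 libraries) a lentivirus for PRDM16 overexpression. According to the study's methods, cells that took up no virus were removed with puromycin. Both groups received 1 X-ray dose of 8 Gy and were collected on day 7, so every library used here came from irradiated cells.

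ABC proteins bind and hydrolyse ATP through a conserved nucleotide-binding domain, and most of them use that energy to move lipids, drugs, conjugates or peptides across a membrane. Some are built as 1 long chain, others as shorter chains that pair up, and the E and F families have no membrane part and work on the ribosome. In the proximal tubule the efflux pumps of the B, C and G families are known for secreting drugs and their conjugates into the urine.

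The labels were first checked. PRDM16 had 2, 0 and 1 counts in the control libraries and 14, 10 and 8 counts in the PRDM16 libraries, so the groups did not overlap, at a low level. Library totals ran from 13407074 to 28540041 counts, and 3 counts, the limit that a count of 0 allows, corresponded to 0.105 to 0.224 CPM in a library (CPM, counts scaled to the library total), for counting error only. Of 12 proximal tubule markers, 3 reached 1 TPM, a level scaled for gene length and library total: GGT1, AQP1 and MME. The endocytic receptor LRP2, the organic anion carriers SLC22A6 and SLC22A8 and the tubule factor HNF4A were all below 0.02 TPM, so these defining markers of the labelled cell type were absent or nearly so. Of 5 epithelial markers, 4 reached 1 TPM, led by KRT8 and KRT18, and CDH1, at 0.42 TPM, did not. The same level was reached by 2 of 5 fibroblast markers, LUM at 123 TPM and COL1A1 at 10.5 TPM. It was reached by 0 of 5 endothelial and 2 of 5 leukocyte markers. The summed leukocyte list, almost all of it the lysosomal protein CD68, ran from 187 to 205 TPM in IR+NC-LV and from 159 to 175 TPM in IR+PR-LV, while CD3E and PTPRC were near 0. The summed proximal tubule list, most of it GGT1, ran from 80.8 to 83.5 TPM in IR+NC-LV and from 63.0 to 81.6 TPM in IR+PR-LV. The fibroblast list, most of it LUM, ran from 130.3 to 136 and from 106 to 149.96 TPM. The epithelial list ran from 1968 to 2051 and from 1949 to 2424 TPM, and the endothelial list stayed between 0.366 and 0.640 TPM in all 6 libraries. CD68 (log2 fold change -0.22) and the adhesion molecule EPCAM (0.22) were the only markers with an unadjusted p under 0.05 (edgeR adjusted p 0.405 and 0.474). Of all tested entries, 10.5% had such a p. The part of these differences in the results on the transporters was not tested. In bulk RNA, fewer cells of a type and less RNA per cell cannot be told apart.

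HK-2 cells expressed a broad but uneven set of ABC genes. With copies of a gene summed, 29 of 45 ABC genes (64.4%) reached a mean of 1 TPM over the 6 libraries, beside 41.8% of all listed gene names. The listed names also hold antisense, divergent and readthrough transcripts, which were left out of the members, so these are shares of unlike sets. Between 0.5 and 1 TPM lay 0 members. Of the genes above, 8 lay from 1 to 5 TPM, 12 from 5 to 20 TPM, 4 from 20 to 50 TPM and 5 at 50 TPM or above, while 14 of the 16 genes under 1 TPM lay below 0.1 TPM. No member was without a count, but the 16 low genes had between 1 and 121 counts in all 6 libraries together.

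The highest level was that of ABCE1, the ribosome recycling factor, at a mean of 360.7 TPM. ABCD3, which brings fatty acyl-CoA into peroxisomes, followed at 107 TPM, and ABCA1, the exporter of cholesterol and phospholipid to apolipoprotein A-I, at 99.5 TPM. These 3 genes made up 54.8% to 60.5% of the summed TPM of all members, which ran from 936.8 to 1032 TPM in IR+NC-LV and from 977 to 1033 TPM in IR+PR-LV. Further down were ABCB1, the drug pump P-glycoprotein, at 56.9 TPM, ABCF3 at 52.9 TPM, ABCC4 at 29.3 TPM, ABCB10 at 26.3 TPM, ABCD4 at 23.4 TPM and ABCC1 at 19.9 TPM. Neighbours in this order often overlapped between libraries. ABCB1 and ABCF3, for example, had means of 58.2 ± 2.73 and 54.8 ± 1.94 TPM in IR+NC-LV and of 55.7 ± 4.23 and 50.9 ± 4.27 TPM in IR+PR-LV (SD, n = 3).

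**Figure D1:**
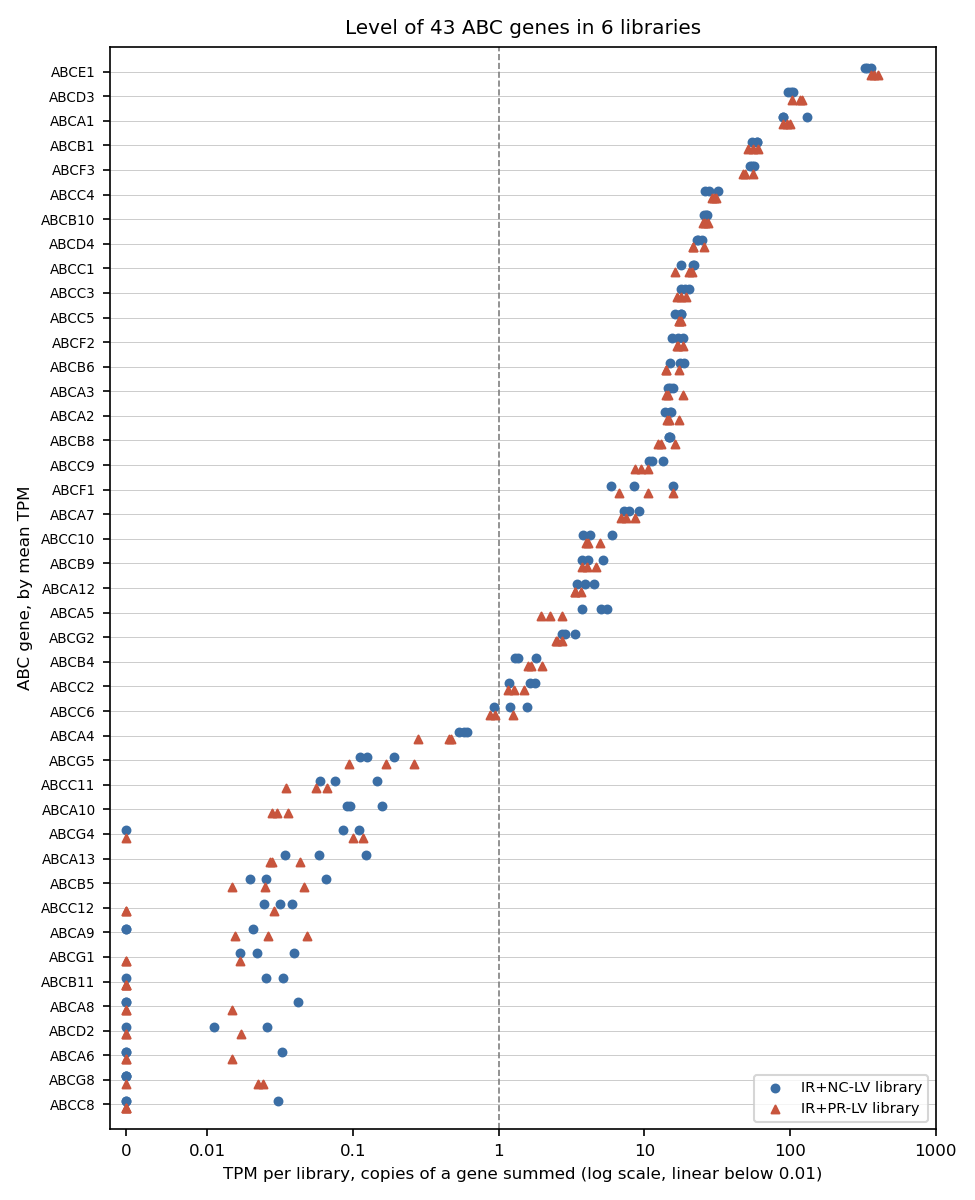
TPM (log scale, linear below 0.01) of 43 ABC genes in each of the 6 libraries, ordered by mean level, with circles for IR+NC-LV, triangles for IR+PR-LV and a dashed line at 1 TPM. ABCE1 lies farthest right in both groups, and 27 of the genes drawn have a mean at or right of the line.

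Genes next to each other on a chromosome could differ widely in level. ABCB1 (chr7:87503017-87713295, minus strand, GRCh38) lay 26294 bases from ABCB4 (chr7:87398988-87476722, minus strand), the phosphatidylcholine exporter best known from liver. The mean level of ABCB1 was 56.9 TPM and that of ABCB4 was 1.61 TPM. On chromosome 17, ABCA8, ABCA9, ABCA6, ABCA10 and ABCA5 lie side by side on the minus strand from 68867285 to 69327133. ABCA5, a carrier of lipids in lysosomes and late endosomes, had 3.54 TPM, while ABCA10 had 0.0730 TPM, ABCA9 0.0183 TPM, ABCA8 0.00938 TPM and ABCA6 0.00793 TPM. The sterol exporters ABCG5 and ABCG8, which form 1 transporter, overlap by 6899 bases on chromosome 2 and had 0.159 and 0.00777 TPM.

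The start sites of expressed and little expressed members differed in their content of CpG, the dinucleotide that is dense at promoters of widely expressed genes. RefSeq start windows on GRCh38.p14, from 250 bases before to 50 bases after a start, were found for 35 of the 45 genes. The median was 25 CpG per window in 24 members at or above 1 TPM (35 windows), 3 CpG in 11 members under 1 TPM (18 windows) and 14 CpG in all 35116 windows of the table. Among genes with 1 window, the median was 29 CpG for 17 members at or above 1 TPM and 3 CpG for 6 members under it. 4 windows are shown to make this visible, each as the bases from 250 to 51 before the start, 5′ to 3′ on the strand of the gene, with CpG in capitals. They are a pump and a lipid carrier with CpG-rich windows, an expressed pump with hardly any CpG, and a little expressed gene of the same cluster as ABCA5.
ABCC4 (chr13:95301502-95301701, minus strand): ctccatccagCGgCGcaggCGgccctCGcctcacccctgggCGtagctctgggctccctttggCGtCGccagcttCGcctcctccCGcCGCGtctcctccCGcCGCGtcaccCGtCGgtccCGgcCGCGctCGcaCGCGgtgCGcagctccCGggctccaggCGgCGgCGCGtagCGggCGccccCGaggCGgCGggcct
ABCA5 (chr17:69327184-69327383, minus strand): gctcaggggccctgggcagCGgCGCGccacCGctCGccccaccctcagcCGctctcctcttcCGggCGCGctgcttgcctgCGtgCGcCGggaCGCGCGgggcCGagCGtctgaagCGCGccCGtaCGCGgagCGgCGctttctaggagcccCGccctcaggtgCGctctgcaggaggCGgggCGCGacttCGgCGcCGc
ABCC2 (chr10:99782390-99782589, plus strand): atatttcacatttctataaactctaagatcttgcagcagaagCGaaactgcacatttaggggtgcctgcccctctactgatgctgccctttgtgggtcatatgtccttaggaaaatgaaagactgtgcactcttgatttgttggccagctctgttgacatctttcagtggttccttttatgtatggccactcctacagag
ABCA6 (chr17:69141946-69142145, minus strand): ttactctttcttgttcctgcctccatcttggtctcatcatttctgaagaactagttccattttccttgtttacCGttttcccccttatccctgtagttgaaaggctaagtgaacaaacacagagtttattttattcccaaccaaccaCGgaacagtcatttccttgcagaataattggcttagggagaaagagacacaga

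The 200 bases shown held 33 CpG for ABCC4, 32 for ABCA5, 1 for ABCC2 and 2 for ABCA6. ABCC4 had a mean of 29.3 TPM and ABCA5 of 3.54 TPM, so a similar CpG content went with different levels. ABCC2, the apical conjugate pump MRP2, reached 1.42 TPM with 1 CpG in its whole window, and ABCG4, a sterol exporter, had windows of 26 and 28 CpG at 0.0689 TPM. 1 of the windows of ABCC11, a pump at 0.0730 TPM, held 28 CpG. The 2 windows of ABCB1 held 1 and 16 CpG, and the 2 of ABCA12, at 3.70 TPM, held 1 and 2 CpG. ABCG2, at 2.77 TPM, had 1 window with 3 CpG among its 5. Letters of known promoter elements were searched on both strands. GGGCGG, the GC box, occurred in 60% of windows of members at or above 1 TPM, 22.2% of windows of members under 1 TPM and 44.95% of all windows, and CACGTG, an E-box, in 22.9%, 5.56% and 7.26%. CCAAT occurred in 20%, 27.8% and 34.6% and TATAAA in 14.3%, 16.7% and 11.5%. Windows of 1 gene can share bases, and a match describes letters only. Among genes with 1 window, CACGTG occurred in 17.65% of 17 windows at or above 1 TPM and 16.67% of 6 under it. The E-box shares were thus close in this smaller set. In the same windows GGGCGG occurred in 82.35% and 0%, CCAAT in 23.53% and 16.67% and TATAAA in 17.65% and 16.67%.

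**Figure D2:**
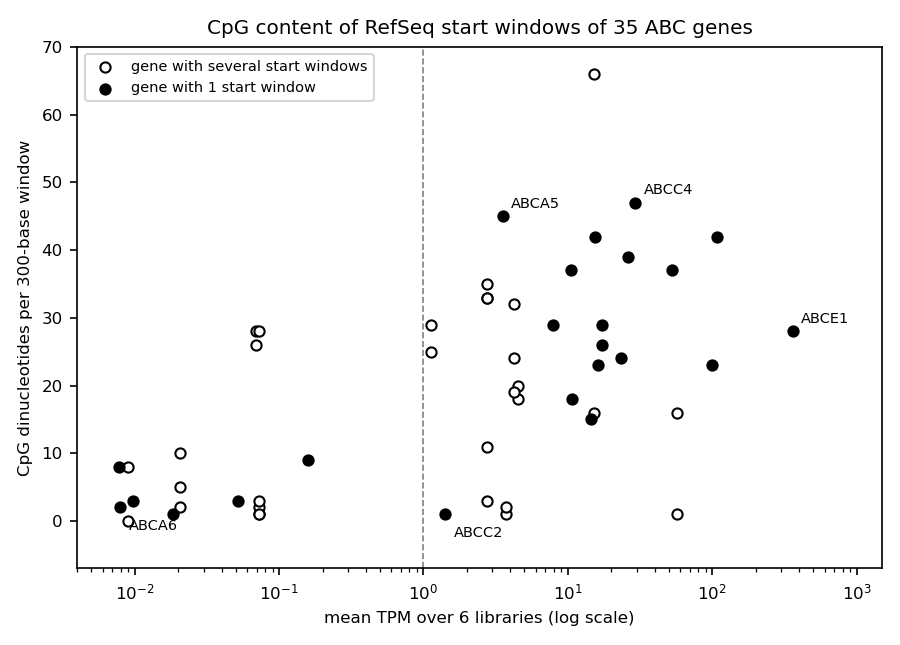
CpG dinucleotides in each 300-base RefSeq start window (vertical axis) against the mean TPM of its gene (log scale), with filled points for genes with 1 window, open points for genes with several and a dashed line at 1 TPM. Most windows left of the line lie at the bottom, with the windows of ABCG4 at 26 and 28 CpG and 1 of ABCC11 at 28 CpG as the exceptions. Right of the line, the windows of ABCC2 and ABCA12 and 1 each of ABCB1 and ABCG2 also lie at the bottom.

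Which ABC genes differed with the PRDM16 lentivirus was then asked. 36 entries of 30 ABC genes had enough counts to be tested. The other 15 genes, with at most 48 counts and 0.159 TPM, were not. By edgeR (quasi-likelihood fit, Benjamini-Hochberg adjustment over all 15340 tested entries), 0 ABC entries passed an adjusted p of 0.05, beside 10 (0.0652%) of all entries. At an unadjusted p under 0.05 there were 5 ABC entries (13.9%), beside 10.5% of all entries. Of them, 3 were higher in IR+PR-LV (ABCE1, ABCD3 and 1 copy of ABCF1, beside 4.55% of all entries) and 2 were lower (ABCA5 and ABCC9, beside 5.97%). The libraries of the groups did not overlap for 7 ABC entries (19.4%), beside 17.0% of all entries. In 3 of these IR+PR-LV was higher (8.33%, beside 7.49%) and in 4 lower (11.1%, beside 9.53%). The median log2 fold change of the 36 entries was -0.018, beside 0.0044 over all entries, with 15 above 0 (41.7%, beside 51.1%). The median size of a log2 fold change, without its sign, was 0.128 for the ABC entries and 0.104 for all, and 63.9% of the ABC entries and 75.2% of all entries lay within 0.2 of 0. Entries of the same gene are counted separately in these shares. With copies summed, 4 of 30 ABC genes (13.3%) had an unadjusted p under 0.05 by edgeR, beside 10.5% of all genes. Of these 30 genes, 11 were higher in IR+PR-LV and 19 lower, with a median log2 fold change of -0.030.

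**Figure D3:**
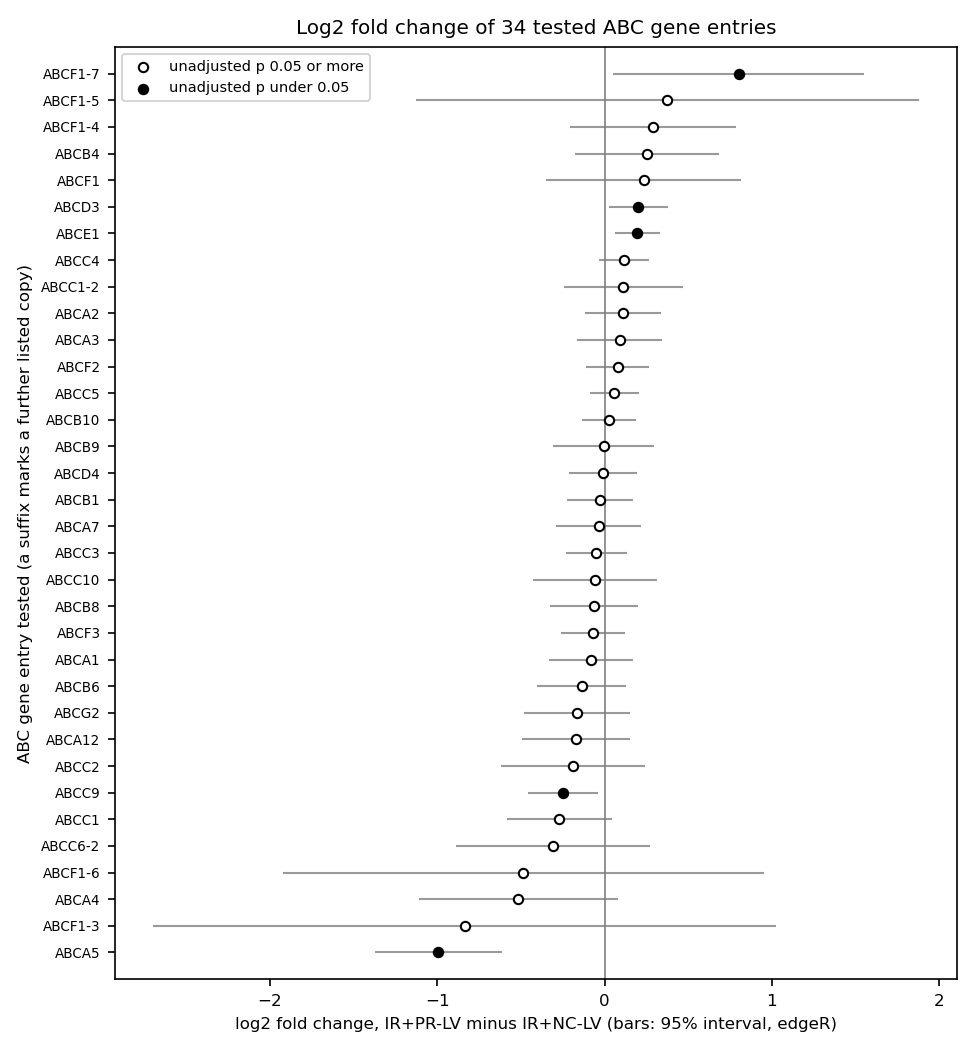
Log2 fold change (IR+PR-LV minus IR+NC-LV, horizontal axis) of 34 tested ABC entries with 95% intervals from edgeR, filled where the unadjusted p was under 0.05. ABCA5 at -0.99 stands apart from the other precisely measured genes, and the widest intervals belong to copies of ABCF1.

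ABCA5 had the smallest p among the members, at position 41 of all tested entries. It lies at chr17:69244311-69327133 on the minus strand. Its level was 14.6, 11.0 and 15.1 CPM in the controls (245, 231 and 210 counts) and 5.71, 6.68 and 7.92 CPM in the PRDM16 libraries (96, 187 and 146 counts). The groups did not overlap, and each IR+PR-LV library was below the lowest IR+NC-LV library. The mean was 13.5 ± 2.25 against 6.77 ± 1.11 CPM (SD, n = 3), a log2 fold change of -0.99 with a 95% interval from -1.37 to -0.61, unadjusted p 0.000214 and adjusted p 0.0799 by edgeR. The call depended on the tool and the filter: DESeq2, which called 1.13% of the same entries, gave an adjusted p of 0.000127, and edgeR without the filter on low counts, which called 1.19% of 28831 entries, gave 3.40e-05. Without IR+NC-LV library 2, the lowest of the controls for this gene, edgeR gave an adjusted p of 0.0430.

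No other ABCA lipid or retinoid carrier had an unadjusted p under 0.05. ABCA10 shares 320 exon bases, 3.38% of those of ABCA5, on the same strand. It had 3, 4 and 4 counts in IR+NC-LV and 1, 2 and 1 in IR+PR-LV, too few to be tested. ABCA4, the retinal flippase, had 1.37, 1.23 and 1.22 CPM in the controls and 1.07, 0.643 and 1.03 CPM in the PRDM16 libraries, groups that did not overlap at a low level (log2 fold change -0.52, 95% interval -1.11 to 0.080, edgeR adjusted p 0.531). ABCA2 and ABCA3, lipid carriers of lysosomes and lamellar bodies, had mean levels of 15.1 and 15.3 TPM and log2 fold changes of 0.11 and 0.090. ABCA12, which loads glucosylceramide in skin, had 3.70 TPM and a log2 fold change of -0.17. ABCA6, ABCA8, ABCA9 and ABCA13 were not tested. Of this group of 10, 5 were tested and the summed level was 39.3 ± 1.44 TPM in IR+NC-LV and 37.4 ± 3.60 TPM in IR+PR-LV.

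The drug, conjugate and bile salt pumps held 13 genes, of which 9 reached 1 TPM and were tested. At an unadjusted p under 0.05 there were 0, beside 10.5% of all entries. Their summed level was 154 ± 6.35 TPM in IR+NC-LV and 149.8 ± 4.32 TPM in IR+PR-LV. ABCB1 had 105, 107 and 90.3 CPM in the controls and 92.0, 108 and 97.1 CPM in the PRDM16 libraries. The groups overlapped, and the log2 fold change was -0.026 with a 95% interval from -0.22 to 0.17 (edgeR adjusted p 0.934). ABCG2, the breast cancer resistance protein (chr4:88090264-88231626, minus strand), was low at 2.77 TPM. It had 4.88, 4.74 and 5.32 CPM in the controls and 4.34, 4.71 and 4.23 CPM in the PRDM16 libraries. The highest IR+PR-LV library lay just below the lowest control (log2 fold change -0.16, 95% interval -0.48 to 0.15, edgeR adjusted p 0.725).

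ABCC4, which exports cyclic nucleotides, urate and drugs (chr13:95019835-95301451, minus strand), had 67.6, 64.4 and 72.06 CPM in the controls and 73.8, 72.06 and 75.4 CPM in the PRDM16 libraries. The groups touched without overlapping, since IR+NC-LV library 3 had 72.0558 CPM and IR+PR-LV library 2 had 72.0602 CPM. The log2 fold change was 0.12 with a 95% interval from -0.033 to 0.27 (edgeR adjusted p 0.576). The related pumps gave overlapping groups. ABCC2 had 3.69, 2.70 and 3.74 CPM against 2.62, 2.89 and 3.31 CPM in IR+PR-LV (log2 fold change -0.19, 95% interval -0.62 to 0.24). ABCC3, a basolateral pump for bile salts and glucuronides, had 34.0, 32.6 and 33.8 CPM against 35.1, 30.5 and 31.5 CPM in IR+PR-LV (log2 fold change -0.050, 95% interval -0.23 to 0.13). ABCC5, a nucleotide analogue pump, had 65.5, 60.2 and 60.8 CPM against 66.3, 64.4 and 63.4 CPM in IR+PR-LV (log2 fold change 0.057, 95% interval -0.090 to 0.20). For these 3 genes edgeR's adjusted p was 0.769, 0.859 and 0.796. ABCC10 and ABCC6 were also tested, at mean levels of 4.52 and 1.13 TPM. ABCC11, ABCC12, ABCB5 and the bile salt pump ABCB11 had at most 25 counts in all 6 libraries together.

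The value for ABCC1, the glutathione conjugate pump MRP1, depended on how its copies were read. The entry on chromosome 16 held 41.8% of its counts and the copy on an alternate scaffold 58.2%. The first had a log2 fold change of -0.27 and the second of 0.11 (edgeR adjusted p 0.531 and 0.840). Summed, ABCC1 had 45.8, 38.1 and 42.6 CPM in the controls and 34.6, 44.6 and 42.4 CPM in the PRDM16 libraries, overlapping groups with a log2 fold change of -0.052 and a 95% interval from -0.30 to 0.19. Its neighbour ABCC6, 6502 bases away on chromosome 16, had 87.7% of its 227 counts on the copy.

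ABCF1, a factor of translation initiation that lies in the HLA region of chromosome 6, was split over 7 entries that held between 2.98% and 45.4% of its 1309 counts. The split differed between libraries of 1 group: the entry with the most counts had 37, 188 and 21 counts in IR+NC-LV and 39, 114 and 195 counts in IR+PR-LV. The chromosome 6 entry had 11, 15 and 9 counts against 15, 21 and 14 in IR+PR-LV. In CPM its groups did not overlap, at 0.655, 0.711 and 0.647 against 0.892, 0.750 and 0.760 (log2 fold change 0.23, edgeR adjusted p 0.829). The copy with an unadjusted p of 0.0390 had 0.595, 0.759 and 1.08 CPM in the controls and 0.833, 1.64 and 1.63 CPM in the PRDM16 libraries, groups that overlapped (log2 fold change 0.80, edgeR adjusted p 0.448). Summed over the 7 entries, ABCF1 had 10.3 ± 5.56 CPM in the controls and 11.6 ± 4.60 CPM in the PRDM16 libraries (SD, n = 3), a log2 fold change of 0.15 with a 95% interval from -0.66 to 0.97. The level and the difference of a single entry of ABCF1, ABCC1 or ABCC6 are therefore uncertain. Summed, ABCF1 still ran from 5.86 to 15.6 TPM in IR+NC-LV and from 6.74 to 15.7 TPM in IR+PR-LV. The handling of reads with several matches is not given, so the summed levels of these genes are uncertain too. All entries outside the assembled chromosomes together took 0.403% to 0.442% of the counts of an IR+NC-LV library and 0.431% to 0.494% of an IR+PR-LV library, and the part of this in the values of the copies was not tested.

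**Figure D4:**
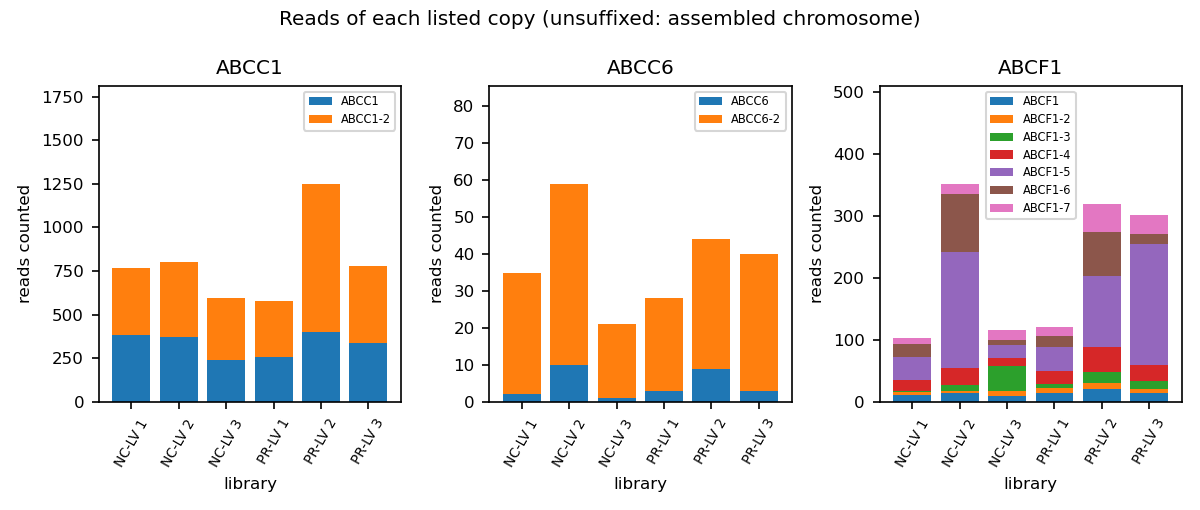
Counts (vertical axis, from 0) of each listed entry of ABCC1, ABCC6 and ABCF1 in each of the 6 libraries, stacked by entry, where a name without a suffix is the entry on the assembled chromosome. The copy of ABCC6 holds most of its counts in all 6 libraries, and the colours of ABCF1 change in proportion from library to library within a group.

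ABCE1 (chr4:145098311-145129524, plus strand) was the most abundant member and the one with the second smallest p. It had 389.7, 410.2 and 400.2 CPM in the controls and 436, 459 and 481 CPM in the PRDM16 libraries, so the groups did not overlap. The log2 fold change was 0.20 with a 95% interval from 0.062 to 0.33, unadjusted p 0.00893 and adjusted p 0.326 by edgeR. An overlap with ANAPC10 on the opposite strand covers 2.80% of its exon bases. Of its partners in ribosome recycling, HBS1L, a GTPase that rescues stalled ribosomes, had 149, 148 and 153 CPM in the controls and 172, 174 and 178 CPM in the PRDM16 libraries. These groups did not overlap either (log2 fold change 0.22, 95% interval 0.096 to 0.34, edgeR adjusted p 0.224). PELO, which works with HBS1L, had a log2 fold change of -0.048, and the release factor ETF1 one of 0.14 (edgeR adjusted p 0.834 and 0.482). The related ribosome-binding proteins ABCF2 and ABCF3 had log2 fold changes of 0.077 and -0.070. ABCF3 had 49.8, 47.2 and 44.7 CPM against 49.4, 44.0 and 41.7 CPM in IR+PR-LV, with overlapping groups.

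ABCD3 (chr1:94418086-94518663, plus strand) had 129, 143 and 125 CPM in the controls and 138, 158 and 159.8 CPM in the PRDM16 libraries. IR+PR-LV library 1 lay below IR+NC-LV library 2, so the groups overlapped. The log2 fold change was 0.20 with a 95% interval from 0.024 to 0.38, unadjusted p 0.0303 and adjusted p 0.422 by edgeR. ABCD2, a related peroxisomal importer of fatty acids, had 6 counts in all 6 libraries. Of 8 genes of peroxisomal import and beta-oxidation, 8 were tested, with a median log2 fold change of -0.030. Of them, 0 had an unadjusted p under 0.05, beside 10.5% of all entries.

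ABCC9 encodes the sulfonylurea receptor SUR2, the regulatory subunit of an ATP-sensitive potassium channel (chr12:21797389-21941863, minus strand). It had 32.3, 31.7 and 35.9 CPM in the controls and 25.4, 28.1 and 30.4 CPM in the PRDM16 libraries, and the groups did not overlap. The log2 fold change was -0.25 with a 95% interval from -0.46 to -0.041, unadjusted p 0.0239 and adjusted p 0.400 by edgeR. KCNJ8, which encodes the pore subunit Kir6.1, had 2.36 TPM and a log2 fold change of 0.0040 with a 95% interval from -0.47 to 0.48. The other receptor gene, ABCC8, had 1 count in all 6 libraries.

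**Figure D5:**
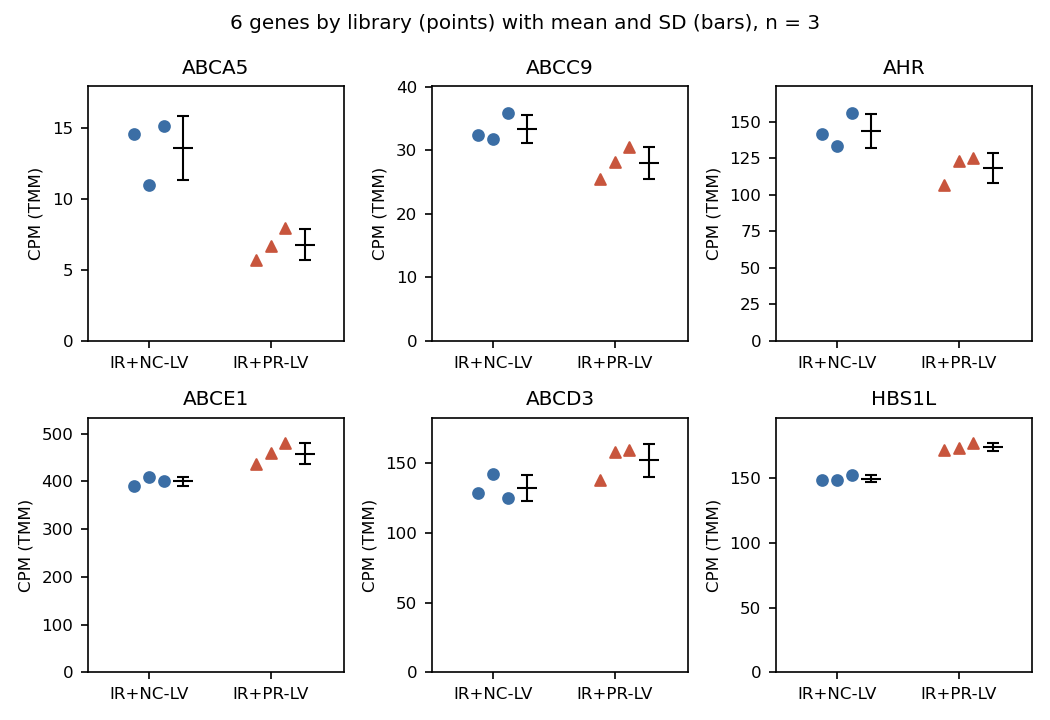
CPM (TMM-normalized, axes from 0) of ABCA5, ABCC9, AHR, ABCE1, ABCD3 and HBS1L in each library, with circles for IR+NC-LV, triangles for IR+PR-LV and the mean with SD (n = 3) beside each group. The groups do not overlap for ABCA5, ABCC9, AHR, ABCE1 and HBS1L and overlap for ABCD3, and the difference of ABCA5 is the largest of the 6 on the log2 scale at -0.99.

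Among the exporters of sterols and phospholipids, ABCA1 (chr9:104781006-104928155, minus strand) had 288, 294 and 392 CPM in the controls and 308, 293 and 321 CPM in the PRDM16 libraries. IR+NC-LV library 3 was the highest of all 6. The log2 fold change was -0.079 with a 95% interval from -0.33 to 0.17 (edgeR adjusted p 0.840), and it became 0.079 without that library. ABCG1, the exporter that hands cholesterol to HDL in macrophages (chr21:42199689-42304387, plus strand), had 6 counts in all 6 libraries, at a mean of 0.0158 TPM, and no fold change is given. ABCA7 had 7.88 TPM and a log2 fold change of -0.036, and ABCB4 one of 0.26 with a 95% interval from -0.18 to 0.69. CROT, on the opposite strand, covers 9.87% of the exon bases of ABCB4. The level of CROT was 8.72 TPM (2056 counts in all 6 libraries), above the 1.61 TPM (475 counts) of ABCB4. The part of CROT reads in the level of ABCB4 was not tested. ABCA1 and ABCG1 are known targets of the oxysterol receptors LXR. Of 8 other LXR targets all were tested, and 1 had an unadjusted p under 0.05, beside 10.5% of all entries. It was the desaturase SCD, with a log2 fold change of 0.14 (edgeR adjusted p 0.428). The median log2 fold change of these targets was -0.055.

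The short, pairing transporters of mitochondria and lysosomes all reached 1 TPM and all 6 were tested. Of them, 0 had an unadjusted p under 0.05, beside 10.5% of all entries. ABCB10, a haem-related carrier of the inner mitochondrial membrane, had 44.3, 46.8 and 42.2 CPM against 43.6, 45.6 and 46.4 CPM in IR+PR-LV. ABCD4, which takes part in the release of vitamin B12 from lysosomes, had 28.9, 29.4 and 29.2 CPM against 32.5, 27.6 and 27.0 CPM in IR+PR-LV. The groups overlapped for both of these genes. Their log2 fold changes were 0.025 and -0.010, with 95% intervals from -0.14 to 0.19 and from -0.21 to 0.19. ABCB6, ABCB8 and ABCB9 had log2 fold changes of -0.14, -0.063 and -0.0053. The summed level of the 6 genes was 121.8 ± 5.55 TPM in IR+NC-LV and 117 ± 4.20 TPM in IR+PR-LV.

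Genes that act with the transporters were counted as well, with no test of a list as a set. The counts stand beside the 10.5% of all tested entries with an unadjusted p under 0.05 by edgeR (4.55% higher, 5.97% lower). Of 14 receptors and factors known to control ABC genes, 12 were tested and 2 had an unadjusted p under 0.05, both lower in IR+PR-LV, with a median log2 fold change of -0.047. The aryl hydrocarbon receptor AHR, known as an inducer of ABCG2, had 141, 133 and 156 CPM in the controls and 106, 123 and 125 CPM in the PRDM16 libraries, groups that did not overlap (log2 fold change -0.28, 95% interval -0.47 to -0.090, edgeR adjusted p 0.326). NFE2L2, the NRF2 factor of the oxidative stress response and a regulator of several ABCC genes, had 162 ± 13.2 against 140.3 ± 5.10 CPM (SD, n = 3), with a log2 fold change of -0.20 and an edgeR adjusted p of 0.396. Of 9 organic ion carriers of the proximal tubule, 2 were tested. SLC22A4, a carrier of ergothioneine, had a log2 fold change of -0.25 (unadjusted p 0.0233, edgeR adjusted p 0.398), and the median was -0.17. Of 10 partners of ABC proteins 9 were tested, HBS1L was the only one with an unadjusted p under 0.05, and the median was 0.040. Of 3 ABC proteins under other symbols, TAP2, a subunit of the peptide transporter for antigen presentation, was the only one tested, with a log2 fold change of 0.019 in its most counted entry of 8. TAP1 was also listed in 8 entries, which were not summed for this list, and its most counted entry, at 0.462 TPM, was not tested. That entry had 0.179, 0.237 and 0.359 CPM in the controls. In the PRDM16 libraries it had 0.476, 0.464 and 0.705 CPM, without overlap at a low level. CFTR, the chloride channel, had 0.0349 TPM. In all these lists 0 genes passed an adjusted p of 0.05 by edgeR.

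The labels do not say whether the libraries of a group came from separate cultures, so the p-values measure the spread between these samples, which may be technical. For a single gene an exact permutation test of 3 against 3 libraries cannot go below p = 0.1. Whether the counting used strand is not given in the sources used here. Whether reads in bases that ABCE1, ABCB4, ABCB9 and ABCC10 share with genes on the opposite strand were kept apart is therefore not known. ABCC9, ABCC4 and the copy of ABCC6 share only 0.362%, 0.291% and 0.107% of their exon bases with such genes. ABCF2 shares 43.1% of its exon bases with a readthrough transcript on its own strand, which had 4 counts.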

How the data were processed

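Total RNA was extracted from irradiated HK-2 cells and, per the study's methods, its poly(A) fraction was sequenced, in 6 libraries, 3 per group. Per the labels, the authors used the hg38 build and featureCounts 2.0.1. The aligner, the strand setting and the handling of reads with several matches are not given in the sources used here. For each library the authors deposited raw read counts per gene, with FPKM and TPM computed from them. Recomputing TPM and FPKM from the counts and gene lengths matched the deposited values within a relative tolerance of 1e-06.

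Counts were tested with edgeR 4.0.16 in R 4.3.3 (TMM normalization, filterByExpr at its minimum count of 10 and total of 15, quasi-likelihood fit) on 15340 entries, with Benjamini-Hochberg adjustment and a threshold of 0.05. CPM values are TMM-normalized, and levels between genes were compared in TPM. A library total between 13407074 and 28540041 counts sets the precision. DESeq2 1.42.0, 2 other normalizations, 2 other filters, summed copies, the replicate number as a block and leaving out each library were alternatives. The scripts were tested on simulated counts.

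Members and lists were chosen with earlier results of these data known. Named were members with an unadjusted p under 0.05 or groups that do not overlap, the 10 with the highest mean TPM, and ABCB1, ABCC1 to ABCC5, ABCG2, ABCA1 and ABCG1; other genes are given to account for every role, and ABCA10 and ABCB4 for their positions. Values of 2 members are not reported here. From the lists, genes with an unadjusted p under 0.05 were named, and a few others for their role beside a member. Marker lists covered proximal tubule, epithelium, fibroblast, endothelium and leukocyte.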

Additional observations from a re-analysis of the deposited data

How the results depend on the processing

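The tests were recomputed under up to 13 alternatives, and the count of expressed genes under other TPM levels, with copies summed and without each library. The 0 ABC entries past the adjusted threshold became 1, ABCA5, with DESeq2 (log2 fold change -0.99) and without the filter on low counts (-0.98), and 0 to 1 when a library was left out, the 1 coming without IR+NC-LV library 2. Over all genes the 10 calls became 173 with DESeq2, 342 without the filter and 1 to 28 when a library was left out (1 without IR+NC-LV library 1 or IR+PR-LV library 3, 28 without IR+NC-LV library 2 and 16 without IR+NC-LV library 3). The 5 ABC entries with an unadjusted p under 0.05 became 7 without the filter and 2 to 6 when a library was left out, with 2 left without IR+NC-LV library 1 or IR+PR-LV library 2. When a library was left out, the median log2 fold change of all tested ABC entries ranged from -0.094, without IR+PR-LV library 1, to 0.0023. The next counts use only the most counted entry of each gene, not summed copies. By that entry, the count of 29 genes at or above 1 TPM ranged from 28 to 29 when a library was left out. At a mean of at least 0.5 TPM it gave 29 genes, and at 5 TPM 20 genes. ABCF1 had 4.70 TPM in that entry and 10.5 TPM with copies summed. The cause was not tested.

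The labels give no pairing by replicate number. The deviations of same-numbered libraries from their group means correlated at -0.0088, 0.051 and 0.071. Those of differently numbered libraries correlated at -0.097 to 0.062. Such small values cannot settle whether samples were paired. With the replicate number as a block, 3 genes in all and 0 ABC entries passed, and ABCA5 had an adjusted p of 0.106 by edgeR.

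Of 246 recomputed fold changes of 19 named ABC entries, 234 kept their direction and their side of the threshold, 3 of ABCA5 passed it and 9 of entries near 0 turned. Leaving out 1 library at a time, ABCA1 ranged from -0.16 to 0.079 (turned without IR+NC-LV library 3), ABCB1 from -0.096 to 0.025 (IR+NC-LV library 1 at 0.00069, IR+NC-LV library 2 at 0.017, IR+PR-LV library 1), ABCB10 from -0.0082 to 0.062 (IR+NC-LV library 3), the ABCC1 copy from -0.078 to 0.26 (IR+PR-LV library 2) and ABCD4 from -0.095 to 0.037 (IR+PR-LV library 2 at 0.027, IR+PR-LV library 3). The ABCC1 copy became -0.052 with copies summed. Depth limits the 15 untested genes, which had at most 48 counts.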
